A study of Homo sapiens with 12 samples.

Results

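The amino acid transporters of VCaP cells were taken as every gene whose symbol places it in solute carrier (SLC) family 1, 3, 6, 7, 36, 38 or 43. The annotation of the arrays held 63 such genes among 20046 genes with a symbol. A gene was represented by its probe with the highest mean and was tested if 3 or more of the 12 arrays detected that probe (detection p under 0.05). This held for 30 of the 63 genes and for 11414 genes in all. Of the 63, 58 are transporters or transporter subunits. The other 5 carry symbols of these families without being carriers: the pseudogenes SLC6A10P and SLC7A5P2, the antisense RNAs SLC38A2-AS1 and SLC38A4-AS1, and SLC7A6OS, a gene opposite SLC7A6.

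VCaP is an established human prostate cancer line, derived from a vertebral metastasis, that responds to androgen. Cells in complete medium received for 24 h the DMSO vehicle, 0.1 nM DHT (dihydrotestosterone, an androgen), 10 µM enzalutamide (an antiandrogen), or 10 µM enzalutamide with 100 nM dexamethasone (a synthetic glucocorticoid), here called the combination. Each of the 4 groups held 3 arrays of separate cultures, according to the study's design. All groups share 1 cell line and a medium that has its own hormones, and no group used here received dexamethasone alone.

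Amino acid carriers sit in the plasma membrane or in the membrane of lysosomes. Some use the sodium gradient to concentrate glutamate (many of family 1) or small neutral amino acids such as glutamine (many of family 38). Others exchange one amino acid for another (many of family 7) or use protons (family 36). Several light chains of family 7 reach the membrane only when bound to a heavy chain of family 3: SLC3A2 serves most of them, and SLC3A1 serves SLC7A9 in the uptake of cystine and of arginine and lysine. When amino acids run short, the factor ATF4 raises many carrier genes through amino acid response elements in their promoters, and carriers on the lysosome inform the growth-controlling kinase mTOR of the supply within it.

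Start regions (250 bases before and 50 after the annotated start) came from RefSeq, build GRCh38.p14, for 47 of the 63 genes and for 6 of the 8 that passed a test, SLC3A1 and SLC6A10P being the others. The windows were searched on both strands, overlapping matches included, for 3 short motifs: AGAACA, found in many binding sites of steroid receptors, TGATGNAA, the core of the amino acid response element, and CACGTG, the E-box that factors of lysosomal genes can bind. The E-box was added after the windows had been read. AGAACA was present in 14.8% of all 35116 start regions, TGATGNAA in 3.62% and CACGTG in 7.26%. The 4 regions below are shown because they belong to genes that changed and hold 1 of these motifs, given in capitals. They are SLC36A1 and SLC1A4, higher with DHT, SLC7A1, lower with DHT, and SLC38A11, lower in the combination.
SLC36A1, second start, chr5:151447353-151447652, plus strand, E-boxes in capitals: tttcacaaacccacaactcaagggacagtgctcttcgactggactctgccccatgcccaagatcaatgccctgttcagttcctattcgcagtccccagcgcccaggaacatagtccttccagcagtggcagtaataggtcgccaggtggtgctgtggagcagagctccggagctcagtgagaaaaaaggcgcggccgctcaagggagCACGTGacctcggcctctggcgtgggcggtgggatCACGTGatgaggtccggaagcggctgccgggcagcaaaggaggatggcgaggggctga
SLC1A4, second start, chr2:64989149-64989448, plus strand, response element core in capitals: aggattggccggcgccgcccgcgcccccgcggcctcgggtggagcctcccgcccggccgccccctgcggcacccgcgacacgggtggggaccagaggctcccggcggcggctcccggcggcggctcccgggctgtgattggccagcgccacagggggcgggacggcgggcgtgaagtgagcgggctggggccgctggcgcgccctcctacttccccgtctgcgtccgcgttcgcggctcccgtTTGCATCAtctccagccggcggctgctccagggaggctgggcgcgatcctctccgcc
SLC7A1, chr13:29595639-29595938, minus strand, response element core in capitals: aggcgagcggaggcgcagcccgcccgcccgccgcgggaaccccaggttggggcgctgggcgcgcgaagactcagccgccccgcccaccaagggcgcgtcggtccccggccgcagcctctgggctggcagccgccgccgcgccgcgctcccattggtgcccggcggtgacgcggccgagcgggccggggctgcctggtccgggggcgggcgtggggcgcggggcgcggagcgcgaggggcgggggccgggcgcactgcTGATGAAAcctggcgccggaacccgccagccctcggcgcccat
SLC38A11, chr2:164955476-164955775, minus strand, AGAACA on the opposite strand in capitals: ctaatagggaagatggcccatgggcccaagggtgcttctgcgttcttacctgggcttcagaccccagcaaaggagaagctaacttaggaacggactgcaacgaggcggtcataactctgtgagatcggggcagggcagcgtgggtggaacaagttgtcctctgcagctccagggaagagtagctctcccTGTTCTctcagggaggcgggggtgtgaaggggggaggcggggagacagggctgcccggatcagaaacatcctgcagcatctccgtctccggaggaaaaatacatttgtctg
The E-boxes of SLC36A1 began 43 and 8 bases before the start. The response element core began 7 bases before the start in SLC1A4, on the opposite strand, and 7 bases after it in SLC7A1. Neither AGAACA nor the other motifs were found in the windows of SLC38A6 and SLC6A8. Among all 26 tested genes with a window, AGAACA was present in 3, the response element core in 5 (SLC1A4, SLC1A5, SLC38A1, SLC3A2 and SLC7A1) and the E-box in 8. Over all 27305 genes with a window the shares were 17.5%, 4.46% and 8.77%. The 26 genes had 44 windows, more per gene than the 35116 windows of all genes, and the E-box was chosen after reading these windows. The counts are thus no test of an excess. These matches describe the letters of the windows and do not show that a factor binds there.

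Mean intensity was 271 to 344 on 11 arrays and 199 on vehicle replicate 3, the dimmest. On each array 15852 to 18352 probes were detected, and normalized intensities correlated at 0.986 to 0.993 within groups and 0.974 to 0.992 between them. Of 10 luminal prostate markers, 8 were tested, and KLK2, TMPRSS2, HOXB13, KRT8, KRT18, ERG and FOLH1 were detected on all 12 arrays. The basal keratins KRT5 and KRT14, the stromal genes DCN and PDGFRB, the T cell gene CD3E, the endothelial gene CDH5 and the neuroendocrine gene SYP were detected on none. Of the same lists ACTA2, CD14, CD68, CHGA and CHGB were detected on all 12, LUM on 11 and ENO2 on 8. FKBP5, a target of both androgen and glucocorticoid, was among 7 genes listed to check the treatments. Its log2 change was 2.39 ± 0.10 with DHT, -0.96 ± 0.10 with enzalutamide and 1.36 ± 0.10 when dexamethasone was added to enzalutamide (SE, n = 3 arrays per group). Of the 5 tested, 3 rose with DHT and 3 fell with enzalutamide. When dexamethasone was added, KLK3 (at least 1.3-fold, limma adjusted p = 0.00871) and KLF9 (limma adjusted p = 0.000362) also rose. TMPRSS2 (0.23, limma adjusted p = 0.178) and TSC22D3 (-0.14, limma adjusted p = 0.761) did not pass. NR3C1, the glucocorticoid receptor gene, was detected on no array.

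Which carriers VCaP cells express is a question of levels. Of the 30 tested genes, 17 were detected on all 12 arrays and 13 on 3 to 11. Of the 33 not tested, 22 were detected on no array, 4 on 1 and 7 on 2. Both heavy chains of family 3 were detected on all 12 arrays. In family 38, the sodium-coupled neutral carriers, 11 of 14 genes were tested (9 of 12 without the antisense RNAs), and in family 6, 5 of 19 were. Family 7 had 6 of 14 genes tested, family 1 had 2 of 7, family 36 had 2 of 4 and family 43 had 2 of 3.

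**Figure D1:**
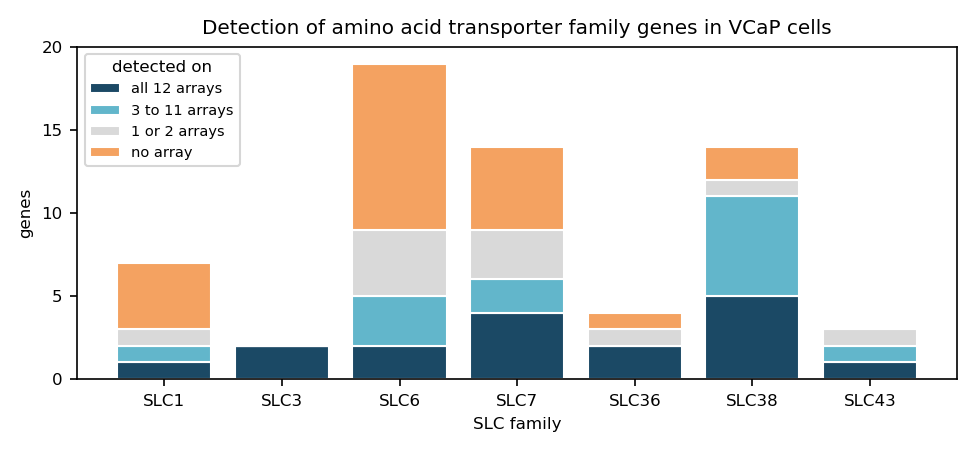
Number of genes (vertical axis) of each SLC family (horizontal axis) by the number of the 12 arrays on which the gene's probe was detected. Family 38 has 11 of its 14 genes on at least 3 arrays, and family 6 has 5 of 19.

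Genes detected on no array included the glutamate carriers SLC1A1, SLC1A2, SLC1A3 and SLC1A6, the dopamine, noradrenaline and serotonin carriers SLC6A3, SLC6A2 and SLC6A4, the broad amino acid carrier SLC6A14, the glycine carrier SLC6A9, and SLC7A11, the cystine-glutamate exchanger. The others of that kind were SLC6A11, SLC6A12, SLC6A15, SLC6A18, SLC6A19, SLC7A5, SLC7A10, SLC7A13, SLC7A14, SLC36A2, SLC38A3 and SLC38A12. SLC6A5, SLC6A7, SLC6A13 and SLC7A3 were detected on 1 array. SLC1A7, SLC6A6, SLC7A4, SLC7A9, SLC36A3, SLC38A4 and SLC43A3 were detected on 2. A gene not detected by these probes may still be expressed below background, and so SLC7A9, the partner of SLC3A1, gives no value to set beside it.

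The brightest probe was annotated to SLC7A5P2, a pseudogene of the leucine carrier SLC7A5, with a mean normalized log2 intensity of 13.58 over the 12 arrays (percentile 99.8 of the genes tested). The array's only probe for SLC7A5 itself was at background on all 12 arrays. The 2 genes are near-identical and the probes' sequences were not used here, so which of them gave this signal was not determined. The level barely differed between groups: it was 13.53, 13.54 and 13.67 with vehicle, 13.57, 13.57 and 13.63 with DHT, 13.47, 13.63 and 13.49 with enzalutamide, and 13.62, 13.72 and 13.51 in the combination. The groups overlapped in full.

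The next brightest were SLC38A2 (10.30), a carrier of glutamine and alanine, the cationic amino acid carrier SLC7A2 (9.23), SLC38A1 (9.14), a second glutamine carrier, SLC7A1 (9.04), the main carrier of arginine and lysine, SLC1A5 (8.54), which exchanges glutamine for other neutral amino acids, SLC6A10P (8.27) and the heavy chain SLC3A2 (8.14), all as mean normalized log2 intensity over 12 arrays. These are intensities of different probes, so their order is not an order of RNA amounts. The 13 genes detected on 3 to 11 arrays had means of 4.76 to 5.45 and lay near background. They included SLC38A9, a lysosomal arginine sensor, SLC38A7, a lysosomal glutamine carrier, SLC7A8, a second partner of SLC3A2, and SLC43A1, a leucine carrier first isolated from prostate cancer.

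**Figure D2:**
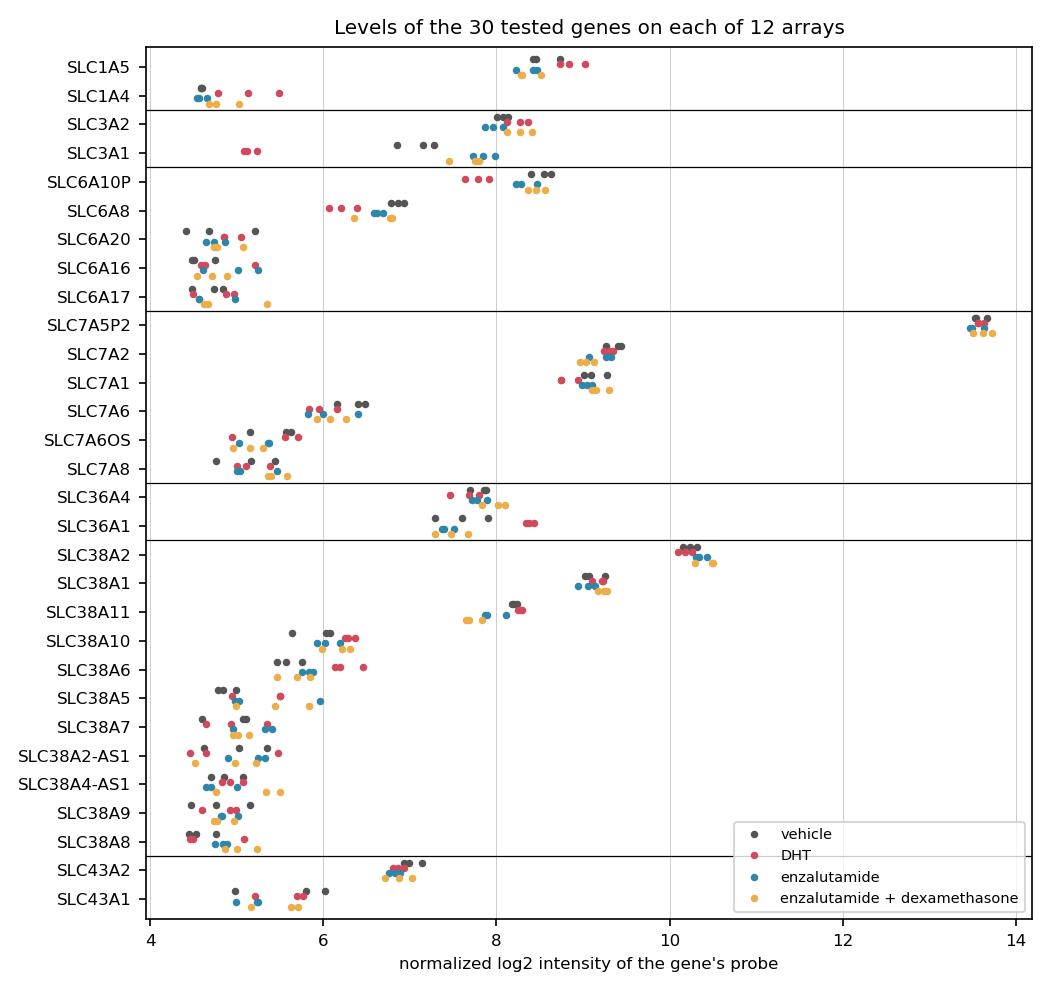
Normalized log2 intensity (horizontal axis) of each of the 30 tested genes (vertical axis, by family) on each of 12 arrays, each point an array coloured by treatment. SLC3A1 separates DHT from the other groups, while SLC7A5P2 stays between 13.47 and 13.72.

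In the comparison of DHT with vehicle, which asks what androgen does in these cells, 3 of the 30 genes rose and 4 fell (limma, adjusted p under 0.05 over all 11414 genes). Across all genes tested 11% rose and 10.7% fell. The 3 and 4 are thus 10% and 13.3% of the members, near the background. Of the 17 members detected on all 12 arrays 2 rose and 4 fell (11.8% and 23.5%), against 13% and 13% of all genes so detected. The 4 include SLC6A8 and SLC6A10P, which count as 1 observation, as given below. The groups did not overlap for 10 of the 30 genes (33.3%) and for 37.2% of all genes, and the median log2 change was 0.05 over the 30 and 0.01 over all. Of the 58 carriers and subunits alone, 25 were tested, 3 rose and 3 fell.

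SLC3A1, the heavy chain for cystine and dibasic amino acid uptake that is mutated in cystinuria, changed most. Its normalized log2 intensity was 7.28, 6.85 and 7.15 on the vehicle arrays, 5.08, 5.23 and 5.12 with DHT, 7.85, 7.99 and 7.73 with enzalutamide, and 7.80, 7.45 and 7.75 in the combination. The 3 DHT arrays were the lowest of the 12, with no overlap with any other group, and the enzalutamide and combination arrays all lay above the vehicle arrays. With DHT it fell by 1.95 ± 0.13 on the log2 scale (SE; 3.85-fold, limma adjusted p = 1.42e-06). With enzalutamide it rose by 0.76 ± 0.13 (1.7-fold, limma adjusted p = 0.0136), so the antagonist and the androgen moved it in opposite directions against the same vehicle arrays. The enzalutamide call was lost without enzalutamide replicate 1 (0.76, limma adjusted p = 0.0521) without enzalutamide replicate 2 (0.69, limma adjusted p = 0.0619), and in a fit of only the vehicle and enzalutamide arrays (limma adjusted p = 0.113). The DHT call was kept under each of the 19 alternatives tried, between -2.07 and -0.87. On the DHT arrays SLC3A1 lay near background (detection p 0.0325, 0.00909 and 0.0234). The size of its fall varied with the processing, and its change was -1.40 in the authors' processed table. The other heavy chain, SLC3A2, was 8.13, 8.07 and 8.01 with vehicle and 8.37, 8.27 and 8.13 with DHT, a log2 change of 0.18 ± 0.10 that did not pass (limma adjusted p = 0.234). Its second probe had a change of 0.09.

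The creatine carrier SLC6A8 and its pseudogene SLC6A10P fell together with DHT. SLC6A8 was 6.93, 6.87 and 6.78 with vehicle and 6.39, 6.06 and 6.21 with DHT, and fell by 0.64 ± 0.13 on the log2 scale (limma adjusted p = 0.00343). SLC6A10P was 8.55, 8.63 and 8.39 with vehicle and 7.79, 7.91 and 7.64 with DHT, and fell by 0.74 ± 0.11 (limma adjusted p = 0.000442). The DHT arrays lay below all vehicle arrays for both. As these genes are near-identical, both probes may read either gene, and they count as 1 observation. With scaling by the array median in place of quantile normalization, which put the median change of all genes at 0.155, the changes were -0.47 (limma adjusted p = 0.146) and -0.52 (limma adjusted p = 0.0977). On the enzalutamide arrays SLC6A8 was 6.69, 6.58 and 6.62, below all vehicle arrays, with a change of -0.23 that did not pass (limma adjusted p = 0.436).

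The other tested genes of family 6 were SLC6A16, SLC6A17, a vesicle carrier of neurons, and SLC6A20, a proline carrier. Their means were 4.76 to 4.82, they were detected on 3 arrays each, and none passed. In the comparisons of groups the largest change among them was that of SLC6A16 with enzalutamide, 0.38 ± 0.19 (limma adjusted p = 0.396).

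The cationic carriers of family 7 changed little. SLC7A1 was 9.01, 9.10 and 9.27 with vehicle, 8.74, 8.75 and 8.94 with DHT, 9.05, 8.99 and 9.10 with enzalutamide, and 9.11, 9.30 and 9.15 in the combination. The DHT arrays were the lowest 3 of the 12, and SLC7A1 fell by 0.32 ± 0.10 on the log2 scale (1.25-fold, limma adjusted p = 0.0367). That call was lost with median scaling (-0.09, limma adjusted p = 0.852), without vehicle replicate 2 (-0.33, limma adjusted p = 0.0667) or 3 (-0.25, limma adjusted p = 0.124), without DHT replicate 1 (-0.28, limma adjusted p = 0.115) or 2 (-0.29, limma adjusted p = 0.114), and with only the groups compared (limma adjusted p = 0.106). SLC7A2 was 9.27, 9.44 and 9.41 with vehicle and 8.97, 9.04 and 9.13 in the combination. Those groups did not overlap, and the change of -0.33 ± 0.09 did not pass (limma adjusted p = 0.156). SLC7A6, a partner of SLC3A2 that exchanges arginine for glutamine, changed by -0.36 with DHT on its brighter probe and by 0.29 on its dimmer one, so it has no single direction here. SLC7A8 and SLC7A6OS did not pass in any comparison.

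Of the neutral carriers of family 1, SLC1A4 passed with DHT and SLC1A5 did not. SLC1A4, a carrier of serine and alanine, was 4.58, 4.59 and 4.59 with vehicle, where it was detected on no array, and 5.13, 5.49 and 4.79 with DHT, where 2 of 3 arrays detected it. It was at least 1.08-fold higher with DHT (limma adjusted p = 0.0223), a bound set against the lowest signal of detected probes. The gene entered the tests through those 2 DHT arrays and 1 other. The call was lost without vehicle replicate 1 (limma adjusted p = 0.0569) or 2 (limma adjusted p = 0.0542), without DHT replicate 1 (limma adjusted p = 0.057) or 2 (limma adjusted p = 0.0775), with median scaling (limma adjusted p = 0.0688) and with only the groups compared (limma adjusted p = 0.0725). SLC1A5 was 8.73, 8.43 and 8.46 with vehicle, 8.84, 9.02 and 8.74 with DHT, 8.23, 8.47 and 8.42 with enzalutamide and 8.28, 8.51 and 8.29 in the combination. All DHT arrays lay above all vehicle arrays, yet the change of 0.33 ± 0.12 did not pass (limma adjusted p = 0.0707).

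SLC36A1, a proton-coupled carrier that exports small amino acids from lysosomes, rose most with DHT. It was 7.29, 7.90 and 7.60 with vehicle, 8.38, 8.34 and 8.43 with DHT, 7.39, 7.37 and 7.52 with enzalutamide, and 7.47, 7.29 and 7.67 in the combination. The DHT arrays were the 3 highest of the 12, and the other groups overlapped. The rise was 0.79 ± 0.14 on the log2 scale (1.73-fold, limma adjusted p = 0.002), and with median scaling it was 1.02. SLC36A4, of the same family, was 7.88, 7.86 and 7.70 with vehicle and 7.69, 7.80 and 7.46 with DHT, a change of -0.16 that did not pass, and its dimmer probe changed by 0.16. With enzalutamide the changes of its probes were -0.02 and 0.54.

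In family 38, SLC38A6, a member whose substrates are little known, rose with DHT. It was 5.57, 5.76 and 5.46 with vehicle, 6.46, 6.13 and 6.19 with DHT, 5.84, 5.75 and 5.88 with enzalutamide, and 5.85, 5.70 and 5.46 in the combination. The DHT arrays were again the highest 3, with a rise of 0.66 ± 0.12 (1.59-fold, limma adjusted p = 0.00241) that median scaling left at 0.75. SLC38A10 was 6.08, 6.03 and 5.64 with vehicle and 6.29, 6.25 and 6.37 with DHT. Its change of 0.38 ± 0.13 missed the threshold (limma adjusted p = 0.054) and passed under 7 of the alternatives (limma adjusted p = 0.0323 to 0.0462). Its dimmer probe changed by 0.50. The bright carriers SLC38A1 and SLC38A2 had changes of 0.07 and -0.06 with DHT, and 95% intervals of the fit of -0.13 to 0.27 and -0.26 to 0.14.

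Median scaling left 3 of the 7 DHT calls (SLC3A1, SLC36A1 and SLC38A6) and changed the direction of none. In that fit all 7 genes had the same SE of 0.21, so the scaling and this common SE cannot be told apart in a lost call. Probes that no array detected split the arrays into a set of 6 and a set of 6 that cut across the groups, with vehicle replicate 3 apart. The split followed the first principal component of their ranks (12.5% of the variance), and what it stands for was not tested. The first set held replicates 1 and 2 of vehicle and DHT, and replicate 1 of enzalutamide and of the combination. In the second set vehicle replicate 3 and DHT replicate 3 were alone in their groups, so only effect sizes are given. Within each set all 7 genes kept their direction. SLC3A1 changed by -1.90 in the first set and -2.03 in the second, SLC36A1 by 0.77 and 0.84, and SLC38A6 by 0.63 and 0.73. Without vehicle replicate 3, 6 of the 7 calls held. The rise of SLC3A1 with enzalutamide was 0.78 and 0.71 within the sets, where enzalutamide replicate 1 or vehicle replicate 3 was alone in its group.

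**Figure D3:**
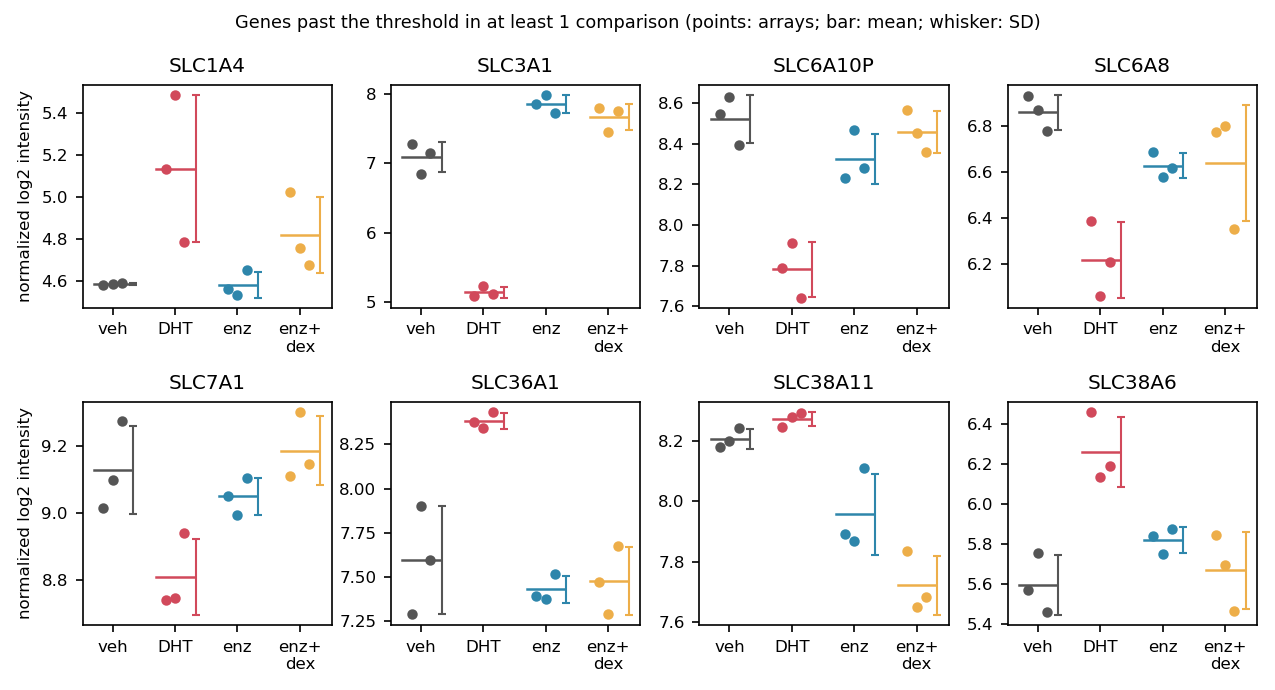
Normalized log2 intensity (vertical axis, scaled to each gene) of the 8 genes past the threshold in at least 1 comparison, for vehicle (veh), DHT, enzalutamide (enz) and the combination (enz+dex). Points are arrays, bars group means and whiskers the SD of 3 arrays. The DHT arrays lie apart from all the others for SLC3A1, SLC6A10P, SLC7A1, SLC36A1 and SLC38A6.

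Enzalutamide against vehicle moved SLC3A1 alone of the 30 genes, upward. Across all genes 0.832% rose and 0.999% fell. For 4 of the 30 genes (13.3%) the groups did not overlap, against 20.1% of all genes, and 2 had an unadjusted p under 0.05. The second was SLC38A11, a little-studied member of family 38, at 8.18, 8.20 and 8.24 with vehicle and 7.89, 7.87 and 8.11 with enzalutamide (-0.25 ± 0.09, limma adjusted p = 0.221). The largest fall was that of SLC43A1, -0.44 ± 0.25, from 6.01, 5.80 and 4.97 to 5.23, 5.25 and 4.99. Vehicle replicate 3, the dimmest array, had its lowest value of the 12, and the groups overlapped. The other member of family 43, SLC43A2, changed by -0.20 ± 0.10 with no overlap of the groups (limma adjusted p = 0.384).

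Dexamethasone added to enzalutamide asks what a glucocorticoid does when androgen action is blocked. None of the 30 genes passed (limma; 3 had an unadjusted p under 0.05), while across all genes 1.79% rose and 1.72% fell. At those rates less than 1 gene of 30 is called in each direction, so this count does not set the members apart. For 5 of the 30 genes (16.7%) the groups did not overlap, against 23.5% of all genes. SLC3A2 was 7.96, 7.86 and 8.07 with enzalutamide and 8.41, 8.28 and 8.12 in the combination, so the combination arrays were all higher, with a change of 0.30 ± 0.10 (limma adjusted p = 0.164). SLC38A4-AS1 had the largest change, 0.42 ± 0.18 (limma adjusted p = 0.294), and SLC38A11 changed by -0.23 ± 0.09 (limma adjusted p = 0.227). For SLC3A1 the 95% interval of the dexamethasone change was -0.47 to 0.10 on the log2 scale, which does not reach the change with DHT.

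In the combination against vehicle, SLC38A11 fell and no gene of the 30 rose, where across all genes 0.429% fell and 0.666% rose. Its values in the combination were 7.83, 7.65 and 7.68, below every vehicle array and every DHT array (8.24, 8.28 and 8.29). It fell by 0.48 ± 0.09 on the log2 scale (1.4-fold, limma adjusted p = 0.0285). The changes of the enzalutamide and dexamethasone steps, -0.25 and -0.23, are its parts and were each short of the threshold. With median scaling it was -0.22 (limma adjusted p = 0.587), and the call was lost without any of the 3 vehicle arrays in turn (limma adjusted p = 0.0792, 0.0754 and 0.0908) without combination replicate 2 (limma adjusted p = 0.112) or 3 (limma adjusted p = 0.114), and with only the groups compared (limma adjusted p = 0.17). SLC3A1 remained above all vehicle arrays in the combination, with a change of 0.57 ± 0.13 that missed the threshold (limma adjusted p = 0.0651). It passed under 6 of the alternatives, median scaling among them (0.81, limma adjusted p = 0.0227). The groups did not overlap for 6 of the 30 genes (20%), against 17.4% of all genes. SLC38A5, near background and detected on no vehicle array, was at least 1.32-fold higher in the combination and did not pass (limma adjusted p = 0.466). This was the largest change among the members of family 38 with no call in any comparison.

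**Figure D4:**
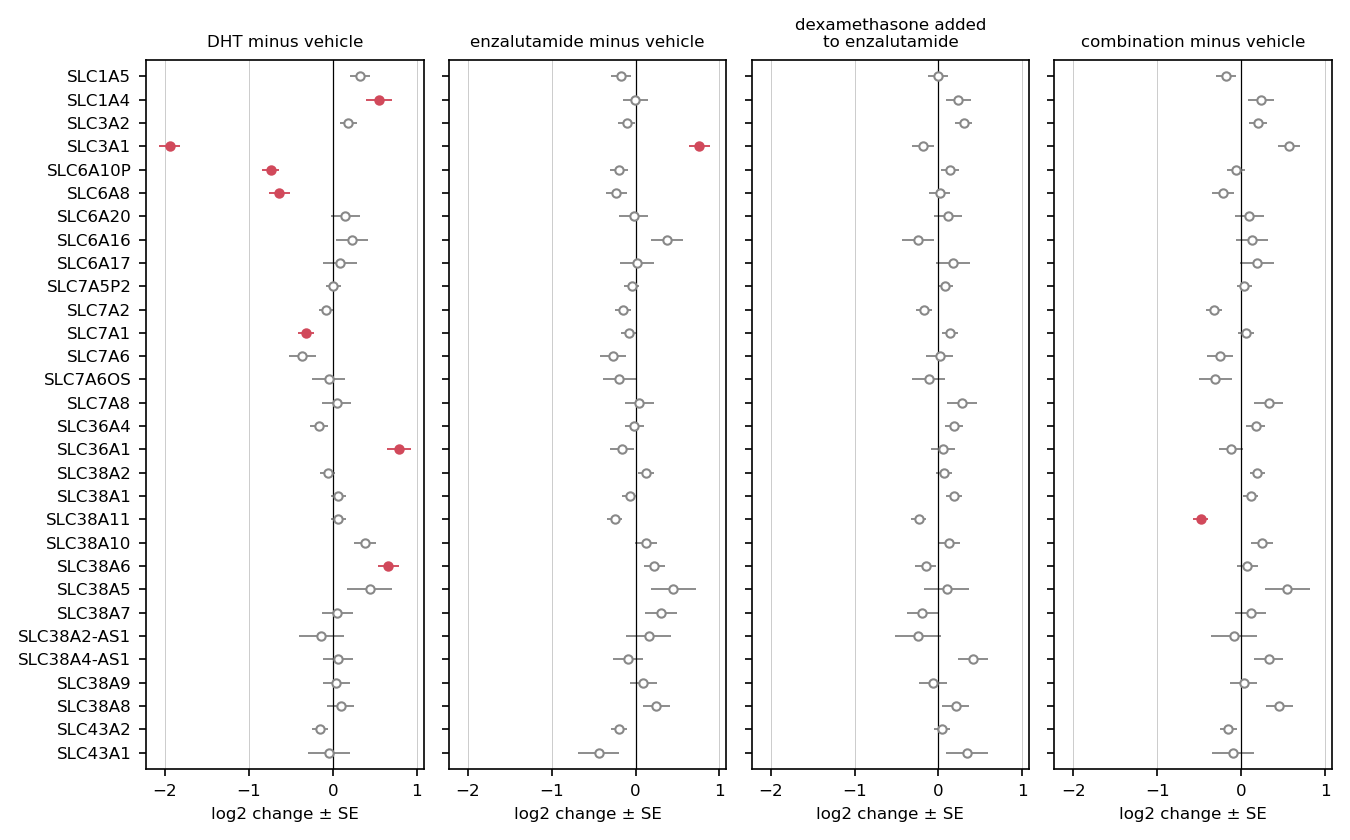
Log2 change ± SE (horizontal axis) of the 30 tested genes (vertical axis, by family) in 4 comparisons, with n = 3 arrays per group. Filled red points passed the threshold. DHT has 7 such genes, enzalutamide 1 (SLC3A1), dexamethasone 0 and the combination 1 (SLC38A11).

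FKBP5 rose with both hormones, so the 2 hormone changes, which share no array, were set against each other for the carriers. The dexamethasone change differed from the DHT change for 5 of the 30 genes, being higher for 3 (10%) and lower for 2 (6.67%). The 3 include SLC6A8 and SLC6A10P, which count as 1 observation. Across all genes it was higher for 3.61% and lower for 3.29%. SLC3A1 changed by -1.95 with DHT and -0.19 with dexamethasone, a difference of 1.76 ± 0.18 (limma adjusted p = 0.000176). SLC6A10P changed by -0.74 and 0.13 (difference 0.88 ± 0.15, limma adjusted p = 0.00463), and SLC6A8 by -0.64 and 0.01 (difference 0.65 ± 0.18, limma adjusted p = 0.0493). In the other direction, SLC38A6 changed by 0.66 and -0.15 (difference -0.82 ± 0.18, limma adjusted p = 0.0158) and SLC36A1 by 0.79 and 0.05 (difference -0.74 ± 0.20, limma adjusted p = 0.0498). For all 5 the dexamethasone change was within 0.19 of no change. With median scaling only the difference for SLC3A1 passed (1.67, limma adjusted p = 9.3e-06), in a fit with the same SE of 0.30 for all 5. The differences for SLC36A1 and SLC6A8 were each lost in 10 of the 12 fits without 1 array: SLC36A1 (-0.77 to -0.59) held only without vehicle replicate 2 or combination replicate 3 and SLC6A8 (0.57 to 0.69 where lost) only without DHT replicate 1 or combination replicate 3. The call for SLC36A1 was also lost with the technical division as a block (limma adjusted p = 0.055). Within the technical sets all 5 differences kept their direction (SLC3A1 1.85 and 1.77), in fits with 1 array in some groups. DHT was given without enzalutamide and dexamethasone with it, so the hormone and the antagonist's presence cannot be told apart here.

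**Figure D5:**
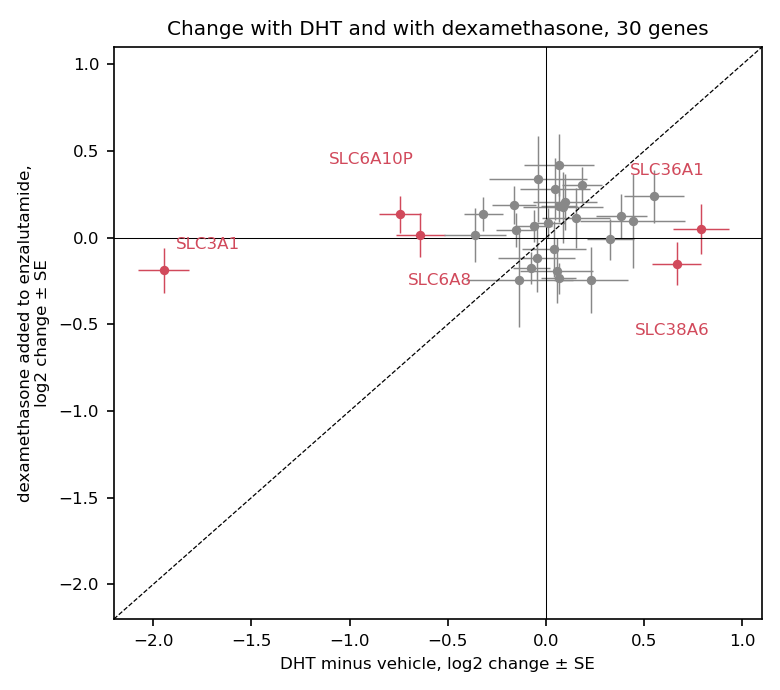
Log2 change ± SE with DHT (horizontal axis) against the log2 change ± SE when dexamethasone was added to enzalutamide (vertical axis) for the 30 tested genes. Red marks the 5 genes whose changes differed in the fit, the dashed line marks equal changes, and SLC3A1 lies farthest from it at -1.95 and -0.19.

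The genes that use, sense or otherwise carry amino acids were taken from lists chosen with earlier results of these data known, and their counts are read against the same background. Of 18 tested genes of the amino acid response, 4 rose and 3 fell with DHT (22.2% and 16.7%, against 11% and 10.7% of all genes). STC2, a secreted stress glycoprotein, changed by -0.79 ± 0.11, and the serine synthesis enzymes PHGDH and PSAT1 by -0.56 ± 0.10 and -0.52 ± 0.10, while the stress factor DDIT3 changed by 0.52 ± 0.13 (limma adjusted p = 0.000416, 0.00214, 0.00226 and 0.0148). The list thus moved in both directions. When dexamethasone was added, 4 of the 18 rose (22.2%, against 1.79% of all genes) and none fell: DDIT3 by 0.87, the lipoprotein receptor VLDLR by 0.78, the mTOR inhibitor DDIT4 by 0.69 and the factor CEBPB by 0.59 (SE 0.09 to 0.14, limma adjusted p at most 0.00847). The other 14 did not pass, ATF4, ASNS and TRIB3 among them, and PHGDH changed by -0.39. As the list was chosen with earlier results known, this share is no test of an amino acid response. With enzalutamide VLDLR (-0.78) and CEBPB (-0.40) fell, and in the combination against vehicle DDIT3 rose (0.63).

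Of 13 tested genes of branched chain amino acid breakdown, 6 fell and 1 rose with DHT, against 10.7% and 11% of all genes. BCAT2, the mitochondrial aminotransferase of the first step, changed by -0.53 ± 0.09 and AUH, an enzyme of leucine breakdown, by -0.53 ± 0.15. The dehydrogenase subunits DBT, BCKDHB and BCKDHA and the valine enzyme HIBADH changed by -0.41 to -0.38. ACAD8, also of valine breakdown, changed by 0.97 ± 0.10 (limma adjusted p = 5.38e-05). The median over the 13 was -0.24, and over all genes 0.01. MCCC2, of leucine breakdown, fell with enzalutamide (-0.60) and rose when dexamethasone was added (0.55).

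Among 11 tested genes of cystine, glutathione and arginine use, the substrates of SLC3A1 and SLC7A1, 2 rose and 3 fell with DHT (18.2% and 27.3%, against 11% and 10.7% of all genes). ODC1, which makes polyamines from ornithine, changed by 0.98 ± 0.09 and GCLM, a subunit of the enzyme that starts glutathione synthesis, by 0.71 ± 0.09. The arginase ARG2 changed by -0.68 ± 0.09, ASS1, which makes the precursor of arginine, by -0.48 ± 0.11 and CBS, of cysteine synthesis, by -0.37 ± 0.08. None passed with enzalutamide or with dexamethasone (limma; 1 and 2 at an unadjusted p under 0.05). Of 10 tested genes of glutamine, glutamate, aspartate and proline metabolism, GLUD1, the glutamate dehydrogenase, was alone in passing: it rose with DHT (0.58), fell with enzalutamide (-0.37) and rose when dexamethasone was added (0.45).

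Of 24 tested genes through which amino acids act on mTOR, 1 rose and 4 fell with DHT (4.17% and 16.7%, against 11% and 10.7% of all genes). SESN1, a sestrin that restrains mTOR, changed by -0.79 ± 0.09 with DHT, 0.73 ± 0.09 with enzalutamide and -0.64 ± 0.09 when dexamethasone was added (limma adjusted p = 7.15e-05, 0.0013 and 0.00184). The leucine sensor's relative SESN3 fell with DHT (-0.49), as did MLST8 (-0.37) and NPRL3 (-0.30), and MTOR itself rose (0.38). DEPDC5, of the complex that inhibits mTOR, fell with dexamethasone (-0.56). Among 10 tested amino acid and peptide carriers of other families, SLC16A10, a carrier of aromatic amino acids, changed by -1.05 ± 0.10 with DHT and 0.58 ± 0.10 with enzalutamide, the directions of SLC3A1. The peptide carrier SLC15A2 was detected on the 3 DHT arrays and on no other, so it entered the tests through them, and was at least 1.36-fold higher with DHT than with vehicle (limma adjusted p = 0.000289). SLC25A12, the mitochondrial aspartate-glutamate carrier, rose in the combination against vehicle (0.74 ± 0.15).

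Markers of other cell types moved with DHT as well. Of 3 tested neuroendocrine markers of 4, CHGB and ENO2 fell with DHT, and the summed linear normalized intensity of the 3 was 141 to 163 with vehicle and 109 to 116 with DHT. Of 2 tested stromal markers of 6 the sum was 132 to 160 and 186 to 189, with DCN and PDGFRB detected on no array. ACTA2 was higher (0.65), while LUM changed the other way (-0.41) and did not pass. Of 3 tested immune markers of 5 it was 381 to 430 and 317 to 334, with CD14 lower and CD3E detected on no array. Of 2 tested endothelial markers of 3 it was 50.7 to 61.7 and 61.9 to 75.9, with CDH5 detected on no array. VWF was higher (0.49), while PECAM1 changed by -0.13 and did not pass. With enzalutamide LUM rose (1.24 ± 0.17, limma adjusted p = 0.00337) and ACTA2 changed by -0.19, which did not pass. The stromal sum was then 174 to 193 and the neuroendocrine sum 165 to 192, both above all vehicle arrays. When dexamethasone was added, ACTA2 rose and LUM and ENO2 fell, and in the combination these sums were 181 to 196 and 162 to 170. The part of these in the changes of the carriers was not tested. In bulk RNA, fewer cells with a transcript and less transcript per cell cannot be told apart.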

How the data were processed

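RNA of 12 VCaP cultures was hybridized as biotin-labelled cRNA to Illumina BeadChip arrays, 1 array per culture. The deposited intensity of a probe is its mean over beads as GenomeStudio gave it, per the submitters' processing notes (version not stated), and was not normalized between arrays. The deposited detection p-value moves in steps of 1 in 770 and so appears to rank the probe among that many negative controls. A second deposited table holds the authors' processed intensity values on a linear scale, background-subtracted and quantile-normalized as far as the values show. It served as an alternative, with 42.5 added before log2.

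Intensities were corrected and quantile-normalized with neqc (limma 3.58.1, R 4.3.3, offset 16). The filter kept 20265 of 47322 probes (42.8%), those with a detection p under 0.05 on 3 or more arrays. The annotation gave 30112 probes 1 symbol, 8 several and 17202 none, so these last stay unnamed. A mean per group was fitted by lmFit and eBayes over all kept probes (8 residual and 3.71 prior degrees of freedom). The brightest kept probe by mean then stood for its gene, and two-sided p-values were adjusted over 11414 genes (Benjamini-Hochberg, threshold 0.05). Where no array of a group detected a gene, its fold is a bound. The smallest p of an exact permutation test of 3 arrays against 3 is 0.1, so calls rest on the fit across genes. Changes are on the log2 scale with the offset, which understates those of dim probes. Alternatives were the filter, background correction, offset, scaling, the processed table, the mean of probes, blocks, fits of only the groups compared and leaving out each array.

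Named were all members past the threshold in any comparison, with array values of some or all groups. Then came, of the other tested members of each family, the brightest and the most changed. Passing genes of each other list followed, not always all of them. SLC38A10, SLC38A1 and SLC7A8, among others, were named beyond this rule, after their values were seen. The members and lists were chosen with earlier results of these data known. The fit was also run on simulated data with independent noise for each probe and array. That run lacked deviations shared between arrays, so it is no test of the calls here. Replicate numbers were checked for pairing: deviations of same-numbered arrays correlated at -0.0794 to 0.217, with 11 of 18 pairs over 0.1. For arrays of different number the range was -0.214 to 0.118, with 1 of 36 pairs over 0.1, so same-numbered arrays were more alike. The main fit has no block for the number, and a replicate block was tried as an alternative. Probe sequences were not used here, so cross-hybridization of near-identical genes was not tested. Of the luminal markers, 2 are not reported here.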

Additional observations from a re-analysis of the deposited data

How the results depend on the processing

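The 14 gene results past the threshold kept their direction under all alternatives tried; 215 of the repeats kept the call and 75 lost it, and the cause of a lost call was not tested unless the alternative used fewer arrays. The fall of SLC3A1 with DHT held in all 19. Fits within the technical sets left 1 array in some groups, so the counts within the sets are no test of the calls. Shrinking the spread over 1 probe per gene, an alternative chosen after seeing the data, kept all 14. In DHT against vehicle, where 2476 genes passed in all, median scaling called 1169, and fits within the first and second technical set, with fewer arrays, called 767 and 228. The members that fell with DHT numbered 1 with median scaling and 1 within the second set, and those that rose numbered 5 with an offset of 50, 1 in the first set and 0 in the other. In enzalutamide against vehicle the 209 calls became 354 with a stricter filter on dim probes, 412 without background correction, 332 with an offset of 50, 48 with median scaling, 36 with only the groups compared, and 0 and 0 within the sets; the 1 member that rose became 0 in the last 3 of these. In the combination against enzalutamide the 400 calls became 612 without background correction, 108 with median scaling, 222 with only the groups compared, and 0 and 27 within the sets. In the combination against vehicle the 125 calls became 208 with a stricter filter, 254 without background correction, 209 with an offset of 50, 10 with only the groups compared, and 0 and 0 within the sets. There the members that fell numbered 2 without background correction and 0 with median scaling, with only the groups compared and within either set, and the members that rose numbered 1 (SLC3A1) with a stricter filter, no background correction, an offset of 50, median scaling, the authors' processed table and the mean of probes. For the difference of the hormone changes the 788 calls became 1206 without background correction, 175 with median scaling, and 1 and 15 within the sets. There the members that were lower numbered 1 without a filter, with the replicate block and with the technical division as a block, and 0 with median scaling and within either set. Those that were higher numbered 1 with median scaling and 0 and 0 within the sets.

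Leaving out each array in turn gave 1871 to 2098 calls for DHT (members up 2 to 4, down 3 to 4), 77 to 133 for enzalutamide (members up 0 to 1), 209 to 234 for dexamethasone added to enzalutamide, 32 to 66 for the combination against vehicle (members down 0 to 1) and 549 to 691 for the difference (members up 2 to 3, down 1 to 2). For enzalutamide, the combination against enzalutamide and the combination against vehicle every array's removal moved the count of all genes by over 1.5 times. In the difference, a removal lowered the members down to 1 for 10 of the 12 arrays (not vehicle replicate 2 or combination replicate 3), the gene lost being SLC36A1. The replicate block also lost this one (-0.74, limma adjusted p = 0.0568), brought SLC38A10 past the threshold with DHT (0.38, limma adjusted p = 0.0462) and changed no other call of a member; 11 of 12 arrays correlated best with another of their own number, a hint from the data and not from the design. The number of arrays and the signal over background limit what can be seen: genes near background have small measured changes.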
